A study of Mus musculus with 48 samples.

Results

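The genes described here are 9 genes of lipoprotein assembly and plasma lipid hydrolysis, Mttp, Tm6sf2, Pltp, Lcat, Lpl, Lipc, Lipg, Angptl4 and Angptl8, found by their Ensembl identifiers among the 55416 genes with counts. All 9 passed the filter on low counts, and every liver had at least 66 reads on each of them. RNA had been sequenced from 48 mouse livers, 8 in each of 6 groups, after a western diet with 0.2% cholesterol given for 8 weeks, from 8 to 16 weeks of age. In the knock-in study the mice were male C57BL/6J littermates that carried none (DN:WT), one (DN:HET) or both (DN:HOM) alleles of the dominant negative LXRα mutation p.W441R, made with CRISPR. In the knockout study they were wild-type (KO:WT), heterozygous (KO:HET) or homozygous (KO:HOM) for loss of LXRα, on a line backcrossed to C57BL/6 and kept at another site. Both alleles are in the germline, so no cell type of the liver is spared. The comparisons ask how the expression of these genes changes with the mutant receptor and with loss of the receptor, and whether the changes differ.

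Liver X receptor-α is a nuclear receptor for oxysterols that works as a heterodimer with RXR on direct repeats of a hexamer separated by 4 bases (DR4). Hepatocytes load apolipoprotein B with lipid in the endoplasmic reticulum and secrete it as very-low-density lipoprotein. In plasma, lipases that sit on the vessel wall hydrolyse the triglyceride and phospholipid of the particles, angiopoietin-like proteins restrain the lipases, and transfer and esterifying proteins pass phospholipid and cholesterol to high-density lipoprotein (HDL). The first step is measured here by Mttp and Tm6sf2, the plasma remodelling by Pltp and Lcat, the hydrolysis by Lpl, Lipc and Lipg, and its restraint by Angptl4 and Angptl8.

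Reads on genes lay between 5332897 and 16961379 per liver (median 15879971), and 2 livers, KO:HET animal 3 and KO:HOM animal 17, had under 10000000. The 8 hepatocyte markers summed to at least 27420 counts per 1000000 reads (CPM) in every liver used, and of 6 adipocyte genes, Adipoq, Plin1 and Lep had mean levels of 0.125, 0.0914 and 0.0359 CPM and Cfd, Fabp4 and Cidea, which steatotic liver can also express, of 78.6, 10.99 and 7.15 CPM. The median sum of the 6 was 168 CPM in DN:WT and 15.9 CPM in DN:HOM, and 89.2 CPM in KO:WT and 73.1 CPM in KO:HOM livers. From DN:WT to DN:HOM the mean of Cfd went from 135.2 to 0.157 CPM and that of Cidea from 26.85 to 0.195 CPM. The mean of Fabp4 did not fall, at 13.4 CPM in DN:WT and 14.7 CPM in DN:HOM. Nr1h3, the gene of LXRα, had a median of 90.2 CPM in KO:WT, 59.7 CPM in KO:HET and 26.4 CPM in KO:HOM livers. A pair of libraries stood apart from their groups and went against their labels. The livers labelled DN:WT animal 10 and DN:HOM animal 12 did not match any normalised count of at least 20 tabulated as source data for 1 panel of RNA-seq values, of which 4 genes could be matched to the other 22 knock-in livers in full, and no reason was found. Other panels were not matched. The macrophage markers summed to 2088 CPM in the former, against 103.8 to 212 CPM in the other DN:WT livers, and to 119 CPM in the latter, against 1309 to 2137 CPM in the other DN:HOM livers. The Kupffer cell markers summed to 3.24 CPM in the former and 159.9 CPM in the latter, where the other DN:WT livers had 139.8 to 268 CPM and the other DN:HOM livers 1.71 to 3.50 CPM. Nr1h3 was at 71.3 and 86.9 CPM, where the other DN:WT livers had 82.05 to 96.9 CPM and the other DN:HOM livers 68.5 to 77.4 CPM. In each of these measures DN:WT animal 10 lay within the range of the other DN:HOM livers and DN:HOM animal 12 within that of the other DN:WT livers, and whether the labels were exchanged was not tested. The tests below use 46 livers (7 in DN:WT and DN:HOM, 8 elsewhere). The homozygous effects of the members, and their differences between the studies, are followed by the values over all 48. A smaller value or a lost call over all 48 livers carries the doubt about the labels. A larger value, a call or a separation of the DN groups over 46 livers rests equally on leaving out both livers. CPM are scaled by TMM, a method that sets the libraries to a common centre. Adjusted p-values come from the quasi-likelihood test of edgeR, adjusted over 15711 genes by the Benjamini-Hochberg method, and a gene is called below 0.05. Each library came from 1 mouse, as numbered in the labels.

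In DN:HOM livers 8 of the 9 genes were called against DN:WT, 7 lower and Lpl higher. At that threshold 59.1% of all genes tested were called, 30% lower and 29.1% higher, so in this fit the number called is above a background that is itself high. The median log2 fold change of the 9 genes was -0.55, against -0.01 over all genes. In KO:HOM livers 3 of the 9, Mttp, Pltp and Lipg, were called against KO:WT, all lower, against 19.4% of all genes called, 7.87% lower and 11.5% higher, and the median of the 9 genes was -0.32, against -0.02 over all genes. With all 48 livers fitted the counts were 8 and 1, against 48% (25% lower, 23% higher) and 12.9% (4.12% lower, 8.79% higher) of all genes. With library size alone they were 5 and 1, against 70.1% and 19.5% of all genes, so the numbers called were then not above the background. The wild-type and homozygous livers did not overlap for 6 of the 9 genes in the knock-in study, where 33.5% of all genes had no overlap, and for Pltp alone in the knockout study, where 2.55% had none. None of the 9 separated the DN groups over all 48 livers (0.115% of all genes did). For the 6 genes, DN:HOM animal 12 lay within the range of the DN:WT livers used, and DN:WT animal 10 lay within that of the DN:HOM livers used for 5, with Lipc at 108.6 CPM against at most 107 CPM. The plot of each gene by liver shows both patterns.

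**Figure D1:**
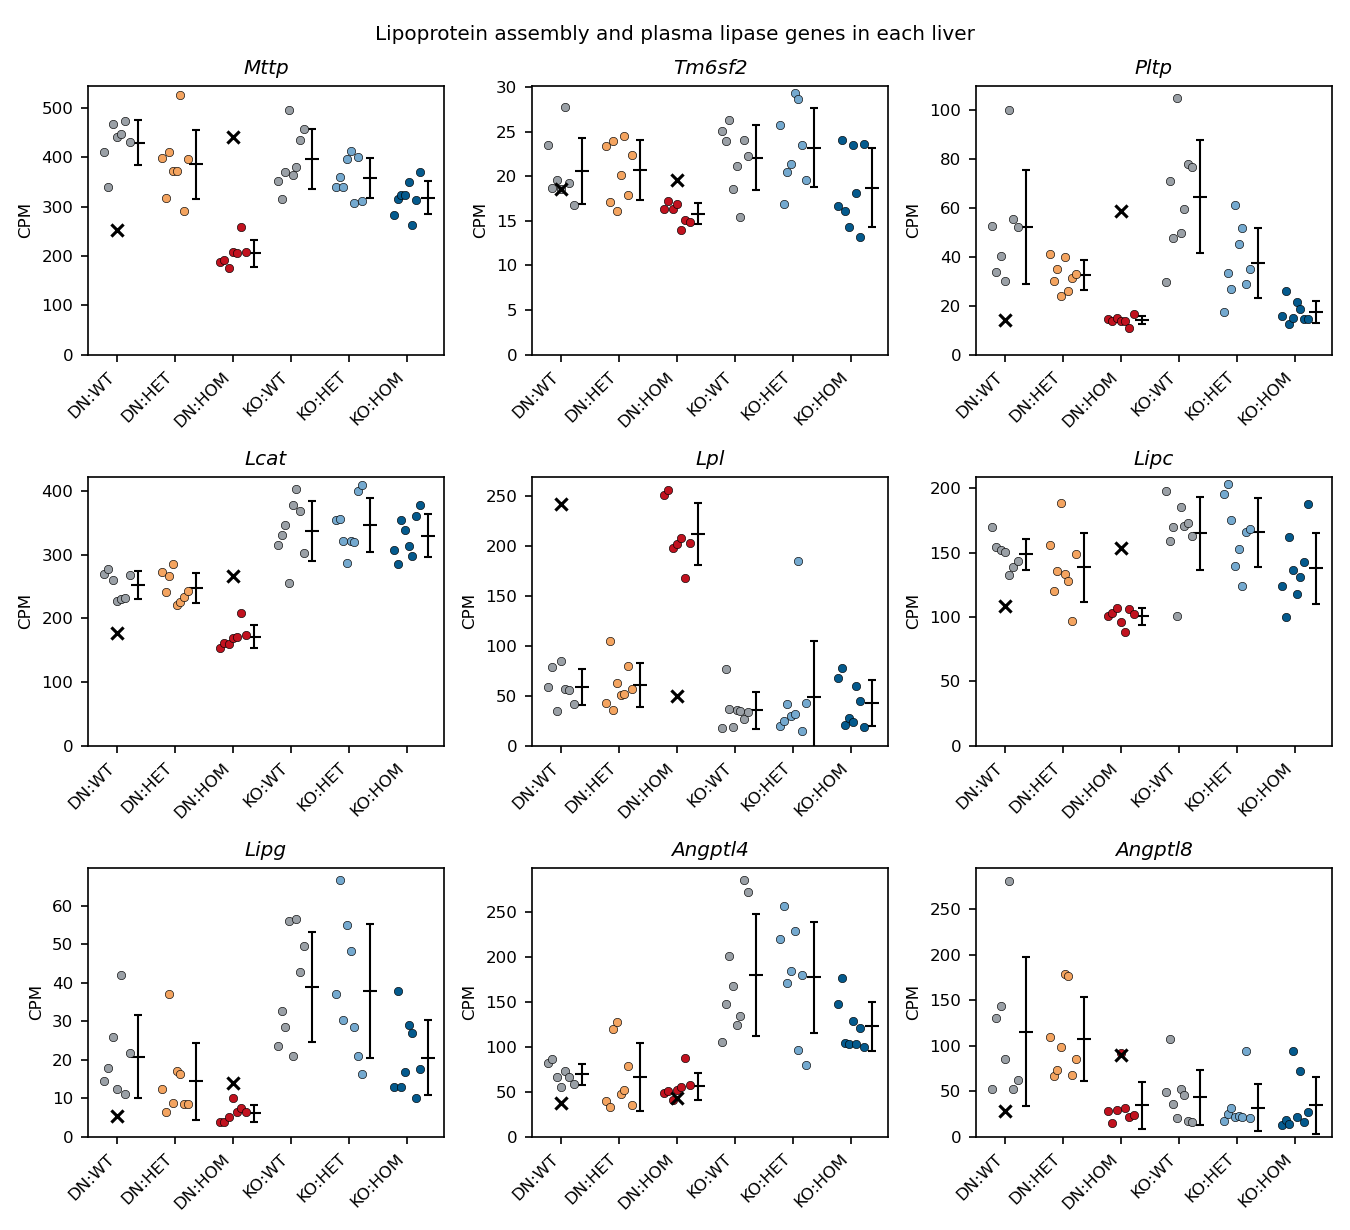
CPM of each gene (vertical axes, from 0) in every liver, by genotype group. Points are livers, horizontal ticks and bars are the mean and SD of the 46 livers used, and crosses are DN:WT animal 10 and DN:HOM animal 12, which were left out. Lpl lay between 168 and 256 CPM in the 7 DN:HOM livers used, above every DN:WT liver used. Pltp lay at or below 26.2 CPM in the livers used of both homozygous groups.

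Levels of different genes were compared per kilobase of the canonical transcript. In DN:WT livers, Lcat had the highest median level at 151.8 CPM per kb, followed by Mttp at 110.9, Angptl8 at 96.5 and Lipc at 78.6. The mean of Angptl8, 130.3 CPM per kb, lay above that of Mttp, 108.4, but without animal 17 it was 99.03, so the order of these genes rests on 1 liver. Pltp (28.8), Angptl4 (19.99), Lpl (13.9), Tm6sf2 (13.3) and Lipg (4.74) had lower medians, in CPM per kb, and those of Lpl and Tm6sf2 differed by less than the spread between livers. The order was different in DN:HOM livers, where the median of Lpl was 49.4 CPM per kb, close to Mttp at 52.03 and Lipc at 53.5, and Pltp and Lipg had 7.64 and 1.67 CPM per kb. The coefficient of variation between livers of a group ran from 6.46% for Lipc in DN:HOM to 114.8% for Lpl in KO:HET, and that of Angptl8 was at least 43.0% in every group. High values of single livers are part of this spread. Lpl was at 185 CPM in KO:HET animal 9, against a group median of 30.8 CPM. Angptl8 was at 91.6 CPM in DN:HOM animal 19 (median 27.8 CPM) and at 94.4 CPM in KO:HET animal 15 (median 21.8 CPM). With these livers included, a change of a given size was therefore easier to detect for Lipc, Lcat and Mttp than for Angptl8, Lipg and Lpl.

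Mttp (ENSMUSG00000028158, chromosome 3 of GRCm39 from 137795612 to 137850729, minus strand) encodes the microsomal triglyceride transfer protein, which lipidates apolipoprotein B in the endoplasmic reticulum. Its lowest, median and highest levels were 339, 440.0 and 473 CPM in DN:WT, 292, 384 and 527 CPM in DN:HET and 176, 206 and 259 CPM in DN:HOM livers. In the knockout study they were 315, 376 and 495 CPM in KO:WT, 307, 350 and 412 CPM in KO:HET and 264, 320 and 370 CPM in KO:HOM livers. Every DN:HOM liver used lay below every DN:WT liver used and every DN:HET liver, while the KO groups overlapped. Mttp was at 252.3 CPM in DN:WT animal 10 and at 441.5 CPM in DN:HOM animal 12, both left out. No share of all genes without overlap was taken for DN:HOM against DN:HET. The log2 fold change was -1.05 in DN:HOM (standard error 0.10, adjusted p = 1.2e-11), a 2.08-fold fall, and -0.80 (standard error 0.14, adjusted p = 3.8e-05) over all 48 livers. In KO:HOM it was -0.32 (standard error 0.10, adjusted p = 0.013), and over 48 livers, where the shared spread was larger, it was -0.32 with an adjusted p of 0.12 and was not called. With library size alone Mttp was at -0.625 in DN:HOM (adjusted p = 3e-08) and, not called, at -0.208 in KO:HOM (adjusted p = 0.062). The fall was greater in the knock-in by 0.73 on the log2 scale (95% interval of the DN minus KO difference -1.01 to -0.45, adjusted p = 6.8e-05), but over all 48 livers this difference was -0.48 (adjusted p = 0.098). Exons of Trmt10a and the non-coding Gm43691 lie opposite to Mttp, and counts without strand gave -1.03 in DN:HOM and -0.33 in KO:HOM.

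Tm6sf2 (ENSMUSG00000036151, chromosome 8 from 70525544 to 70532716, plus strand) encodes a membrane protein of the endoplasmic reticulum and Golgi that is needed to enlarge very-low-density lipoprotein with lipid. It was among the lower genes, with 16.8, 19.3 and 27.8 CPM (lowest, median and highest) in DN:WT and 13.95, 16.3 and 17.2 CPM in DN:HOM livers. The KO:WT livers had 15.4, 23.1 and 26.4 CPM and the KO:HOM livers 13.2, 17.4 and 24.1 CPM. The ranges overlapped in both studies. In DN:HOM it fell by 0.37 on the log2 scale (standard error 0.13, adjusted p = 0.015) with a log2 fold change of -0.32 over 48 livers (adjusted p = 0.031). Scaling by library size alone, which moved the median of all genes to 0.42 in this comparison, put Tm6sf2 at 0.065, so its fall is relative to the other genes. In KO:HOM it was -0.24 (95% interval -0.48 to 0.00, adjusted p = 0.18; adjusted p = 0.22 at the same value over 48 livers), and the difference between the studies, -0.13, was not called (95% interval -0.48 to 0.23), nor over all 48 livers (-0.09, adjusted p = 0.8).

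Most markers of hepatocytes were called lower and most of stellate cells higher in the same comparisons. Of all genes, 30% were called lower and 29.1% higher in DN:HOM, and 7.87% and 11.5% in KO:HOM. The 8 hepatocyte markers, Alb among them, summed to 54640, 64460 and 70500 CPM (lowest, median and highest) in DN:WT and to 27420, 28250 and 35080 CPM in DN:HOM livers, and 7 of 8 were called lower. In the knockout study the median sum was 75550 CPM in KO:WT and 58210 CPM in KO:HOM livers, with 5 of 8 called lower. These counts were 6 and 2 of 8 over all 48 livers. There 25% and 4.12% of all genes were called lower, and 23% and 8.79% higher. In DN:WT animal 10 the sum was 37140 CPM and in DN:HOM animal 12 it was 73100 CPM. Of 7 stellate cell markers, 6 were called higher in DN:HOM, where the median sum was 506 CPM against 212 CPM in DN:WT, and 4 in KO:HOM livers, where it was 289 CPM against 203 CPM, and over all 48 livers 5 and 2 were. The 5 lymphocyte markers were low, with a median sum of 3.84 CPM in DN:HOM against 2.83 CPM in DN:WT, and 6.62 CPM in KO:HOM against 1.76 CPM in KO:WT. In DN:HOM 2 and in KO:HOM 3 of them were called higher, or 0 and 3 over all 48 livers. Cd79a (-0.64) and Ms4a1 (-1.14) lay below 0 in DN:HOM and were not called. In whole liver, fewer cells of a type and less RNA per cell cannot be told apart. The part of these shifts in the lower Mttp, Tm6sf2, Lcat and Lipc was not tested.

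Pltp (ENSMUSG00000017754, chromosome 2 from 164677702 to 164701743, minus strand), a well-known LXR target, encodes the phospholipid transfer protein that moves phospholipid from triglyceride-rich particles to HDL. It had 30.3, 52.3 and 100.2 CPM (lowest, median and highest) in DN:WT, 23.97, 32.1 and 41.0 CPM in DN:HET and 10.95, 13.9 and 16.6 CPM in DN:HOM livers. In the knockout study it had 29.6, 65.2 and 105 CPM in KO:WT, 17.6, 34.2 and 61.2 CPM in KO:HET and 12.5, 15.3 and 26.2 CPM in KO:HOM livers. Every homozygous liver used lay below every wild-type liver used of its study. The heterozygous medians lay between the wild-type and homozygous medians in both. The log2 fold change was -1.87 in DN:HOM (standard error 0.23, adjusted p = 4.3e-09) and -1.90 in KO:HOM (standard error 0.22, adjusted p = 6.2e-08). Unlike for Mttp, Lcat and Lpl, no difference between the studies was called, and its estimate of 0.03 had a 95% interval of -0.59 to 0.64 (adjusted p = 0.96), an interval that allows a difference of either sign. With all 48 livers, the DN:HOM value was -1.28 (adjusted p = 0.00063), the KO:HOM value was -1.89 (adjusted p = 3.9e-05) and the difference was 0.62 (adjusted p = 0.34). In DN:WT animal 10 Pltp was at 14.02 CPM and in DN:HOM animal 12 at 58.6 CPM.

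Exons of Ctsa, which encodes a lysosomal protease, overlap Pltp on the opposite strand. Ctsa had a mean of 119 ± 15.2 CPM (SD, n = 7) in DN:WT and 178 ± 10.1 CPM (SD, n = 7) in DN:HOM livers, and its log2 fold change was 0.60 (adjusted p = 4.4e-09). With counts that ignore strand, where reads shared by both genes are set aside, Pltp was at -2.29 on the log2 scale (standard error 0.27) in DN:HOM and -2.01 (standard error 0.25) in KO:HOM livers, and its DN minus KO difference was -0.27 (adjusted p = 0.59). The fall in both homozygous groups therefore held in either way of counting. Whether Ctsa reads add to the low level left in homozygous livers was not tested.

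The promoter of Pltp is shown because Pltp fell by a similar size in both homozygous groups. RefSeq gives it at chr2:164857659-164857958 of GRCm38.p6, minus strand, from 250 bases before to 50 bases after the start, and capitals mark TATAAA, 37 to 42 bases after the start.
Pltp promoter: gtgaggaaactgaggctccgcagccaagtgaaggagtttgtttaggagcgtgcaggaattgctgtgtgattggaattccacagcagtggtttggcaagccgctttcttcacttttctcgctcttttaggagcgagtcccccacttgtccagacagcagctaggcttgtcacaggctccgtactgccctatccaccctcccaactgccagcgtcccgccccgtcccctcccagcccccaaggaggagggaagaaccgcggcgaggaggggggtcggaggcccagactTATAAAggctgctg
Both strands were searched for the nuclear receptor half-site AGGTCA, the direct repeats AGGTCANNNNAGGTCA (DR4) and AGGTCANAGGTCA (DR1), which both contain the half-site, the sterol regulatory element TCACNCCAC, the E-box CACGTG and TATAAA. Of 32851 promoters of this length, 16.3% held the half-site, 0.0152% DR4, 0.0396% DR1, 1.24% the sterol element, 7.15% the E-box and 13.6% TATAAA. RefSeq promoters were found for 5 of the 9 genes (Mttp, Pltp, Lcat, Angptl8 and, with 2 promoters, Lipc). Besides TATAAA in Pltp, the only matches were half-sites at 88 and 76 bases before the start in the second Lipc promoter. No match says only that these letters are not in this window.

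Lcat (ENSMUSG00000035237, chromosome 8 from 106665839 to 106670046, minus strand) encodes lecithin-cholesterol acyltransferase, the plasma enzyme that esterifies the cholesterol of HDL. Its lowest, median and highest levels were 227, 261 and 278 CPM in DN:WT, 220.3, 243 and 285 CPM in DN:HET and 154, 170 and 208 CPM in DN:HOM livers. The KO:WT livers had 255, 338 and 404 CPM and the KO:HOM livers 286, 326.5 and 379 CPM. The DN:WT and DN:HOM livers used did not overlap, and the KO:HOM livers lay within the range of KO:WT. The log2 fold change was -0.55 in DN:HOM (standard error 0.09, adjusted p = 7.1e-07) and -0.04 in KO:HOM (95% interval -0.20 to 0.12, adjusted p = 0.78), an interval that leaves out the size seen in DN:HOM. Their difference was -0.51 (95% interval -0.74 to -0.27, adjusted p = 0.00077). With all 48 livers, the DN:HOM value was -0.41 (adjusted p = 0.00093), the KO:HOM value -0.03 (adjusted p = 0.87) and the difference -0.38 (adjusted p = 0.07). With library size alone, under which the median of all genes rose to 0.42, the DN:HOM value was -0.12 (adjusted p = 0.18), so the call rests on the scaling between libraries, and the KO:HOM value turned to 0.074.

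Lpl (ENSMUSG00000015568, chromosome 8 from 69284603 to 69360100, plus strand) encodes lipoprotein lipase, which hydrolyses the triglyceride of circulating particles and is known for low expression in adult hepatocytes and for expression in macrophages. Its lowest, median and highest levels were 35.2, 57.05 and 84.4 CPM in DN:WT, 35.5, 54.2 and 104.9 CPM in DN:HET and 168, 203 and 256 CPM in DN:HOM livers. They were 17.95, 34.6 and 77.2 CPM in KO:WT, 14.3, 30.8 and 185 CPM in KO:HET and 18.5, 36.5 and 77.5 CPM in KO:HOM livers. Every DN:HOM liver used lay above every DN:WT liver used and every DN:HET liver, and the KO groups overlapped throughout. No share of all genes without overlap was taken for DN:HOM against DN:HET. In DN:HOM Lpl rose by 1.87 on the log2 scale (standard error 0.38, adjusted p = 5.2e-05), a 3.65-fold rise, against 0.27 (95% interval -0.42 to 0.97, adjusted p = 0.64) in KO:HOM. The difference was 1.59 (95% interval 0.58 to 2.61, adjusted p = 0.014). Over all 48 livers the DN:HOM value was 1.23 (standard error 0.41, adjusted p = 0.012), the KO:HOM value 0.27 (adjusted p = 0.72) and the difference 0.96 (adjusted p = 0.28), with Lpl at 243 CPM in DN:WT animal 10 and 50.2 CPM in DN:HOM animal 12.

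Macrophage markers were higher in the same livers as Lpl in DN:HOM, where 29.1% of all genes were called higher and 30% lower (11.5% and 7.87% in KO:HOM). All 11 of the list, among them Cd68, Trem2 and Gpnmb, were called higher in DN:HOM and 10 of 11 in KO:HOM livers, and the 6 markers of resident Kupffer cells were all called lower in DN:HOM and 4 of 6 in KO:HOM livers. With all 48 livers, 10 and 7 of the macrophage markers were called higher (23% and 8.79% of all genes) and 6 and 3 of the Kupffer cell markers lower (25% and 4.12%). The macrophage sum had a lowest, median and highest value of 103.8, 139.7 and 212 CPM in DN:WT, 136, 244 and 1135 CPM in DN:HET, 1309, 1729 and 2137 CPM in DN:HOM, 73.4, 121 and 233 CPM in KO:WT, 79.0, 137 and 394 CPM in KO:HET and 348, 528.5 and 1388 CPM in KO:HOM livers. Every KO:HOM liver had a higher sum than every KO:WT liver while their Lpl ranges overlapped. The highest Lpl levels among KO:HOM livers, 77.5 and 67.7 CPM in animals 11 and 8, were in the livers with the highest sums of that group, 1066 and 1388 CPM. The same held in DN:HET, where animals 4 and 22 had 104.9 and 80.1 CPM of Lpl beside sums of 1093 and 1135 CPM. At similar sums of 1309 and 1391 CPM, DN:HOM animals 33 and 31 had 168 and 208 CPM of Lpl. KO:HET animal 9 had the highest Lpl and the highest sum of its group, 185 and 394 CPM. Elsewhere the order was not shared. The highest sum in DN:HOM, 2137 CPM in animal 34, went with 203 CPM of Lpl, and the highest Lpl, 256 CPM in animal 15, with a sum of 1729 CPM. In KO:WT the highest Lpl, 77.2 CPM in animal 5, was at a sum of 137.9 CPM, and the highest sum, 233 CPM in animal 14, at 36.9 CPM of Lpl. In DN:WT these were 84.4 CPM at 175 CPM (animal 13) and 212 CPM at 57.05 CPM (animal 17). The part of macrophages in the Lpl level was not tested.

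**Figure D2:**
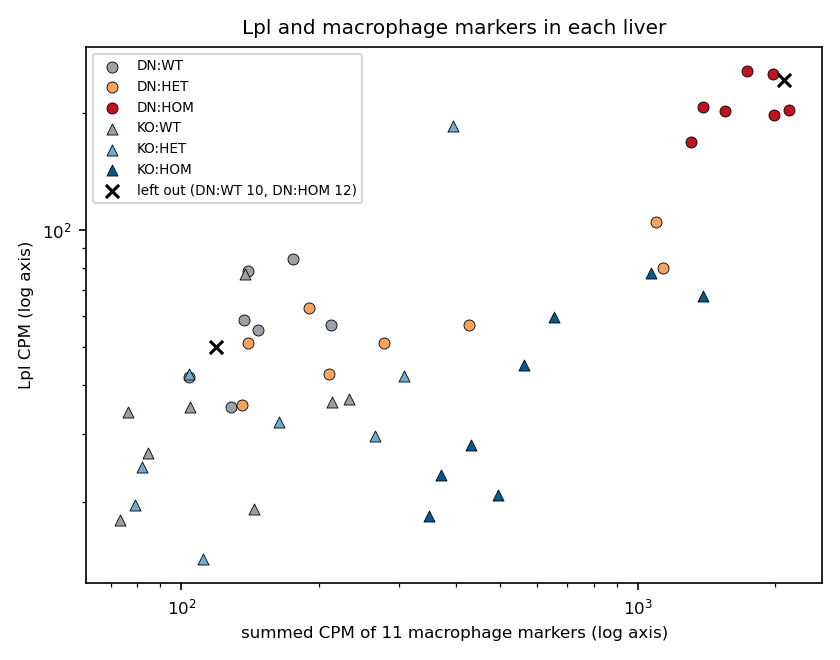
Lpl CPM against the summed CPM of 11 macrophage markers in each of the 48 livers, both on log axes. Circles are knock-in and triangles knockout livers, coloured by genotype, and crosses are the left-out livers. The 7 DN:HOM livers sit at the upper right, with Lpl at or above 168 CPM and sums from 1309 to 2137 CPM, and the KO:HOM livers spread below them.

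Matches to DR4 near the genes are shown because Lpl and Lcat differed between the studies and were the only members with one. The search allowed 1 mismatch in the 12 fixed bases within 5000 bases of each canonical start, on both strands of GRCm39, and found a match near 9.36% of 21627 protein-coding genes (0.435% with no mismatch, none of them a member). In the sequences, capitals mark the hexamers, with 5 flanking bases on each side. The Lpl match lies at chr8:69333837-69333862 on the minus strand, 707 bases downstream of the start in intron 1. The Lcat match lies at chr8:106665056-106665081 on the plus strand, 4977 bases downstream of the start and outside the canonical transcript.
Lpl DR4 match: tagggAGGTCAccacCGGTCActaca
Lcat DR4 match: caccaAGGTCAgaagAGGGCAtcaga
A match describes letters and not binding, which was not measured.

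Lipc (ENSMUSG00000032207, chromosome 9 from 70705410 to 70859508, minus strand) encodes hepatic lipase, which is made by hepatocytes and acts on the phospholipid and triglyceride of remnants and HDL. It had 132, 151 and 169.8 CPM (lowest, median and highest) in DN:WT, 96.9, 135 and 189 CPM in DN:HET and 88.7, 103 and 107 CPM in DN:HOM livers. The KO:WT livers had 101, 170.2 and 198 CPM and the KO:HOM livers 99.96, 134 and 188 CPM. The DN:WT and DN:HOM livers used did not overlap, whereas the KO groups did. The log2 fold change was -0.55 in DN:HOM (standard error 0.12, adjusted p = 0.00016) and -0.42 over all 48 livers (adjusted p = 0.0052). With library size alone it was -0.12 (adjusted p = 0.34). In KO:HOM it was -0.27 (95% interval -0.49 to -0.04) and not called (adjusted p = 0.095), with -0.26 over all 48 livers (adjusted p = 0.17), and the difference between the studies, -0.28 (95% interval -0.61 to 0.05, adjusted p = 0.19), was not called either, nor over all 48 livers (-0.16, adjusted p = 0.58).

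Lipg (ENSMUSG00000053846, chromosome 18 from 75072393 to 75094339, minus strand) encodes endothelial lipase, a phospholipase that acts on HDL. It had 11, 17.96 and 42.1 CPM (lowest, median and highest) in DN:WT, 6.51, 10.5 and 37.1 CPM in DN:HET and 3.695, 6.32 and 9.94 CPM in DN:HOM livers. In the knockout study it had 20.9, 37.7 and 56.6 CPM in KO:WT, 16.2, 33.8 and 66.7 CPM in KO:HET and 10.2, 17.2 and 37.9 CPM in KO:HOM livers. The DN:HOM livers used lay below the DN:WT livers used without overlap, by a narrow gap, and the KO groups overlapped. Lipg fell by 1.76 on the log2 scale in DN:HOM (standard error 0.36, adjusted p = 4.5e-05) and its log2 fold change over all 48 livers was -1.43 (adjusted p = 0.0014). In KO:HOM it was -0.92 (standard error 0.32, adjusted p = 0.035), over all 48 livers -0.91 (adjusted p = 0.072) and without both livers under 10000000 reads the adjusted p was 0.058. With library size alone Lipg was at -0.786 in KO:HOM (adjusted p = 0.068). DN minus KO, the effects differed by -0.85 (95% interval -1.77 to 0.08, adjusted p = 0.16), and over all 48 livers by -0.52 (adjusted p = 0.52). Endothelial markers were lower in DN:HOM for 5 of 8 and higher for 1 of 8, with a median sum of 93.8 CPM against 141 CPM in DN:WT, and 1 of 8 was called in each direction in KO:HOM, where the sum was 132 CPM against 128 CPM in KO:WT. The share of all genes called was 59.1% in DN:HOM, 30% lower and 29.1% higher, and in KO:HOM it was 7.87% lower and 11.5% higher, so the counts in KO:HOM are near the background. In DN:HOM 5 were lower and 0 higher over all 48 livers, against 25% and 23% of all genes. Their part in the Lipg level was not tested.

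Angptl4 (ENSMUSG00000002289, chromosome 17 from 33992724 to 34000804, minus strand) encodes a secreted inhibitor of lipoprotein lipase that rises with fasting and fatty acids. It was the only member not called in DN:HOM. It had 54.7, 66.1 and 86.6 CPM (lowest, median and highest) in DN:WT and 41.3, 51.8 and 87.6 CPM in DN:HOM livers, and DN:HET livers ran from 32.9 to 127 CPM. In the knockout study it had 105, 158 and 286 CPM in KO:WT, 79.9, 182 and 256 CPM in KO:HET and 100, 112 and 176.5 CPM in KO:HOM livers. The genotypes overlapped within each study. Its log2 fold change was -0.29 (95% interval -0.81 to 0.22, adjusted p = 0.34) in DN:HOM, which turned to 0.13 with library size alone, and -0.55 (95% interval -1.03 to -0.08, adjusted p = 0.11) in KO:HOM. The difference between them was 0.26 (95% interval -0.44 to 0.95). With all 48 livers, DN:HOM was at -0.26 (adjusted p = 0.39), KO:HOM at -0.55 (adjusted p = 0.14) and the difference was 0.28 (adjusted p = 0.64).

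Angptl8 (ENSMUSG00000047822, chromosome 9 from 21746786 to 21748643, plus strand) encodes a feeding-induced secreted protein that takes part in the restraint of lipoprotein lipase. The gene lies within Dock6 on the opposite strand, with no exon in common. It had 51.9, 85.4 and 281 CPM (lowest, median and highest) in DN:WT, 66.65, 92.1 and 178.5 CPM in DN:HET and 14.8, 27.8 and 91.6 CPM in DN:HOM livers. The KO:WT livers had 16.7, 40.8 and 108 CPM, the KO:HET livers 17.1, 21.8 and 94.4 CPM and the KO:HOM livers 12.55, 20.1 and 94.0 CPM. In DN:HOM, 6 of the 7 livers used lay below every DN:WT liver used, and animal 19, at 91.6 CPM, lay among the DN:WT livers. Angptl8 was at 28.4 CPM in DN:WT animal 10 and at 89.3 CPM in DN:HOM animal 12, both left out. Angptl8 fell by 1.73 on the log2 scale in DN:HOM (standard error 0.47, adjusted p = 0.0016), and over all 48 livers the value was -1.34 (adjusted p = 0.016). In KO:HOM it was -0.32 (95% interval -1.18 to 0.53, adjusted p = 0.66), and -0.32 over all 48 livers (adjusted p = 0.71). The difference, -1.40 (95% interval -2.65 to -0.16), had an adjusted p of 0.082 and was not called, nor over all 48 livers (-1.02, adjusted p = 0.31). No source used here gives the feeding state of each mouse at collection.

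The homozygous effects were set against each other by the difference of differences, which removes any shift common to all mice of a study. Of the 9 genes, 3 were called, Lcat and Mttp with a greater fall and Lpl with a greater rise in the knock-in. Of all genes 34.7% were called, so the number of members called is not above the background. Over all 48 livers edgeR called 0 of the 9 (10.5% of all genes), with 2 at an unadjusted p under 0.05. No share of all genes was taken at that unadjusted threshold. DESeq2, run on 46 livers, called 3. Of the 6 not called, the interval of the difference included 0 for all but Angptl8.

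**Figure D3:**
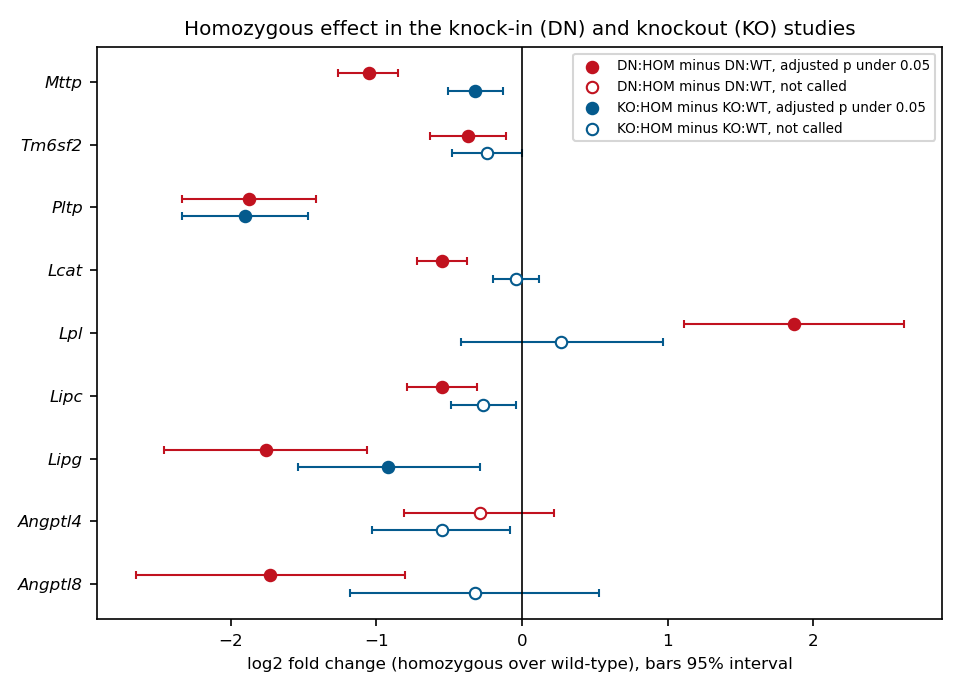
Log2 fold change (horizontal axis) of each gene in DN:HOM against DN:WT (red) and KO:HOM against KO:WT (blue), over 46 livers, with 95% intervals. Filled points have an adjusted p under 0.05. Pltp is at -1.87 and -1.90, whereas Lpl is at 1.87 and 0.27. With library size alone Tm6sf2 and Angptl4 turn above 0 in DN:HOM and Lcat turns above 0 in KO:HOM.

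In heterozygous livers edgeR called 0 of the 9 genes in either study, where 2.3% (DN:HET) and 0.0191% (KO:HET) of all genes were called, and DESeq2 also called 0 in each. At an unadjusted p under 0.05, for which no share of all genes was taken, there was 1 member in each study, Pltp both times. Its log2 fold change was -0.68 (95% interval -1.11 to -0.26, adjusted p = 0.081) in DN:HET and -0.79 (95% interval -1.21 to -0.38, adjusted p = 0.33) in KO:HET livers. Over all 48 livers these values were -0.54 (adjusted p = 0.81) and -0.78 (adjusted p = 0.95), and edgeR again called 0 of the 9 in each (0.25% and 0.0192% of all genes), with 0 and 1 at an unadjusted p under 0.05. The intervals of Mttp, Tm6sf2, Lcat and Lipc lay within 0.35 of 0 on the log2 scale in both studies, while those of Lpl, Lipg and Angptl8 were wide. For Lpl the interval was -0.67 to 0.76 in DN:HET and -0.23 to 1.16 in KO:HET livers.

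Wild-type livers of the studies were compared because they show how far the background levels differ. Of the 9 genes 3 were called, against 12% of all genes. Angptl4 was lower in DN:WT than in KO:WT livers, at -1.38 on the log2 scale (standard error 0.26, adjusted p = 0.00023), and its groups did not overlap, as for 1.76% of all genes. Lcat was lower in DN:WT (-0.43, adjusted p = 0.00043), and Angptl8 was higher (1.40, adjusted p = 0.033). With all 48 livers, Angptl4 was at -1.46 (adjusted p = 7.2e-05) and Lcat at -0.48 (adjusted p = 0.0008). When all 48 livers were fitted, 4 were called (12.7% of all genes), these and Lpl at 1.21 (adjusted p = 0.043) and Lipg at -1.04 (adjusted p = 0.038), while Angptl8 at 1.27 (adjusted p = 0.061) was not. Site, line and study cannot be told apart in this comparison.

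The other genes of the pathway were counted from 3 lists, against 30% of all genes called lower and 29.1% higher in DN:HOM and 7.87% lower and 11.5% higher in KO:HOM livers. Of 14 genes of assembly and secretion, 11 were lower and 1 higher in DN:HOM (median -0.52), and 3 lower and 1 higher in KO:HOM livers (median -0.10). Apob, the structural protein of the particle, had a log2 fold change of -0.34 in DN:HOM (adjusted p = 0.0027) and 0.09 in KO:HOM (adjusted p = 0.56). Sar1b, a GTPase of the coat that exports the particle from the endoplasmic reticulum, was at -1.01 in DN:HOM (adjusted p = 4.2e-12) and -0.14 in KO:HOM (adjusted p = 0.3). Lpcat3, a phospholipid-remodelling enzyme and LXR target, was at -0.89 (adjusted p = 1.3e-07) and -0.03 (adjusted p = 0.89). Sort1, a sorting receptor of the Golgi, was the gene called higher in each study, at 1.04 and 0.72. The others called lower in DN:HOM were Aadac (-1.13), Ces1d (-0.96), Mia2 (-0.77), Cideb (-0.68), Smlr1 (-0.55), Tmem41b (-0.49), P4hb (-0.41), which encodes the partner subunit of the Mttp protein, and Mia3 (-0.27). In KO:HOM the 3 were Tmem41b (-0.58), Aadac (-0.34) and Surf4 (-0.15). In DN:HOM the values over all 48 livers were -0.25 for Apob (adjusted p = 0.044), -0.74 for Sar1b, -0.66 for Lpcat3 and 0.80 for Sort1, and Sort1 was still called in KO:HOM (0.72, adjusted p = 0.015), whereas Aadac (adjusted p = 0.08) and Surf4 (adjusted p = 0.065) were not. With library size alone 6 of the list were lower and 3 higher in DN:HOM (median -0.09), where 70.1% of all genes were called and the median of all genes was 0.42. Apob (0.09), P4hb (0.02) and Mia3 (0.16) turned above 0 and were not called, so these smaller falls are relative to the other genes. Smlr1 (-0.12, adjusted p = 0.21) and Tmem41b (-0.05, adjusted p = 0.65) in DN:HOM and Surf4 in KO:HOM (-0.04, adjusted p = 0.69) lost their calls with this scaling.

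Of 13 genes of lipase regulation, 10 were lower and 2 higher in DN:HOM (median -0.68), and 4 were lower in KO:HOM livers (median -0.16), where 59.1% and 19.4% of all genes were called. Apoc3, an inhibitor of triglyceride clearance, was at -1.17 and -0.33 (adjusted p = 6.7e-14 and 0.0061). Lmf1, a chaperone for lipase folding, was at -0.61 in DN:HOM (adjusted p = 4.2e-08) and 0.01 in KO:HOM (adjusted p = 0.94). Lmf2 and Pcsk5 were the genes called higher in DN:HOM, at 0.30 and 0.48, and over all 48 livers at 0.22 and 0.37 (adjusted p = 0.011 and 0.0041). The apolipoproteins Apoc1 (-1.19), Apoa5 (-0.68) and Apoc2 (-0.66), the last of which activates lipoprotein lipase, were also called lower in DN:HOM, as were Pcsk6 (-0.94), Sel1l (-0.84), Furin (-0.68) and Creb3l3 (-0.51). Sel1l (-0.31) and Furin (-0.29) were among the 4 in KO:HOM. Over all 48 livers Apoc3 was at -0.91 in DN:HOM and was not called in KO:HOM (-0.32, adjusted p = 0.1), and Lmf1 was at -0.48 in DN:HOM. Nor were Apoc2 in DN:HOM (adjusted p = 0.078) and Sel1l and Furin in KO:HOM (adjusted p = 0.13 and 0.06) called over those livers. Scaled by library size alone, 8 were lower and 2 higher in DN:HOM (median -0.25), where 70.1% of all genes were called and the median of all genes was 0.42. Apoc2 (-0.24, adjusted p = 0.35) and Creb3l3 (-0.09, adjusted p = 0.33) in DN:HOM and Sel1l in KO:HOM (-0.19, adjusted p = 0.16) lost their calls with this scaling. Gpihbp1, which anchors lipoprotein lipase to capillaries, was not called in either.

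Of 11 genes of HDL and lipid transfer, 7 were lower and 2 higher in DN:HOM (median -0.39), and 3 were lower and 3 higher in KO:HOM livers (median 0.01), where 59.1% and 19.4% of all genes were called. The balance in DN:HOM turned with library size alone, to 3 lower and 5 higher (median 0.04), and in KO:HOM 2 were lower and 3 higher (median 0.11). Under that scaling 70.1% and 19.5% of all genes were called, and the median of all genes was 0.42 and 0.09. Apoa4 fell in both, with log2 fold changes of -2.51 in DN:HOM and -1.25 in KO:HOM (adjusted p = 0.018), and over all 48 livers it was at -1.61 (adjusted p = 0.005) and, no longer called, at -1.24 (adjusted p = 0.071). Apoa1 and Apoa2, the main proteins of HDL, were called lower in both, at -0.60 and -1.51 in DN:HOM and -0.63 and -0.37 in KO:HOM, and over all 48 livers Apoa2 was not called in KO:HOM (adjusted p = 0.21). With library size alone neither Apoa1 in DN:HOM (-0.17, adjusted p = 0.24) nor Apoa2 in KO:HOM (-0.26, adjusted p = 0.057) was called. Abcg1, a sterol exporter that is high in macrophages, rose in both, at 1.74 and 1.37. Abca1 was called in opposite directions, at -0.27 in DN:HOM (adjusted p = 0.0027) and 0.24 in KO:HOM livers (adjusted p = 0.014), but with library size alone its DN:HOM value was 0.16 (adjusted p = 0.041). Apom, a carrier of sphingosine-1-phosphate on HDL, was at 0.87 in DN:HOM and -0.07 in KO:HOM. Pon1 (-1.36), Apoe (-0.90) and Apof (-0.39) were also called lower in DN:HOM, though Apoe was not over all 48 livers (adjusted p = 0.056) and with library size alone Apoe (-0.47, adjusted p = 0.15) was not and Apof turned to 0.04, and Pon3 was called higher in KO:HOM (0.26). In DN:HOM the values over all 48 livers were 1.20 for Abcg1, -0.19 for Abca1 (adjusted p = 0.048) and 0.65 for Apom. The numbers called lower and higher in DN:HOM over all 48 livers were 11 and 1 for assembly, 9 and 2 for lipase regulation and 6 and 2 for HDL, against 25% and 23% of all genes. In KO:HOM they were 1 and 1, 1 and 0, and 1 and 3, against 4.12% and 8.79%.

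**Figure D4:**
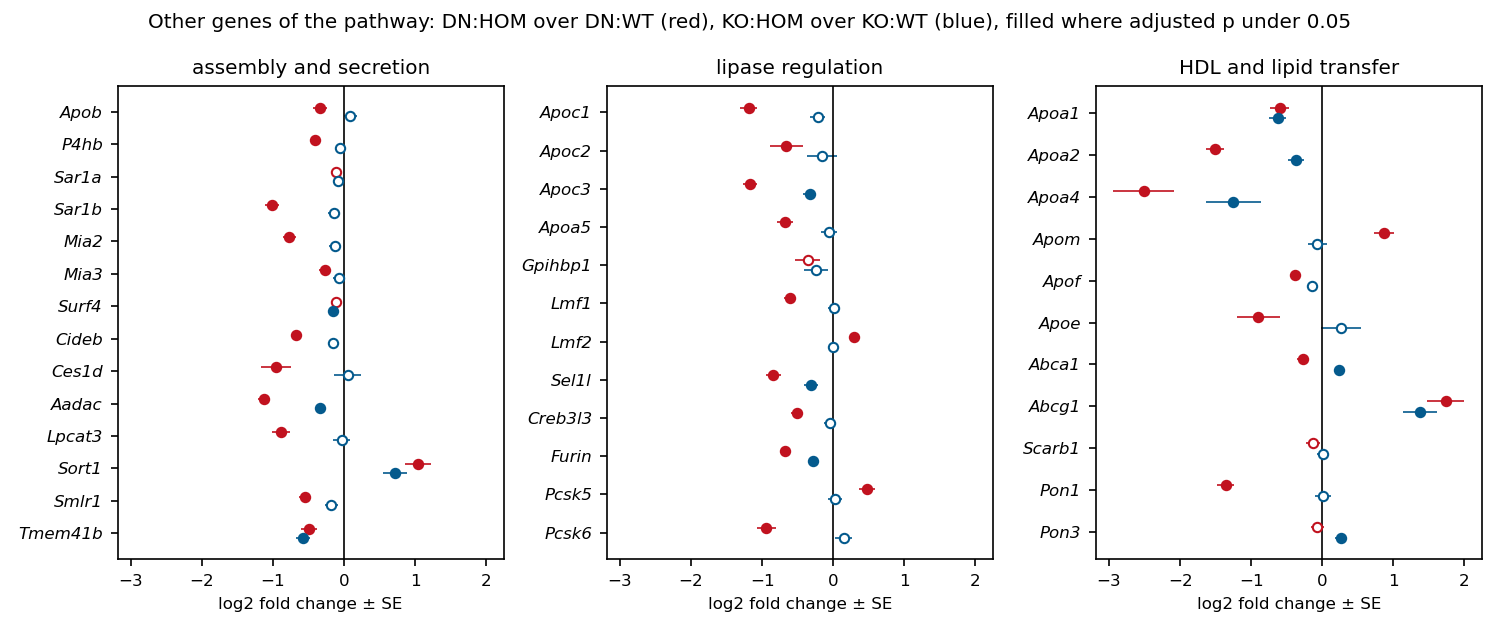
Log2 fold change with standard error (horizontal axes) of the other genes of the pathway reported here in DN:HOM (red) and KO:HOM livers (blue), each against wild-type of its study. Filled points have an adjusted p under 0.05. Most red points lie left of 0, with Apoa4 farthest at -2.51, and most blue points lie nearer to 0.

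The genes most like each member over the 46 livers were taken from 13244 genes with a mean of at least 1 CPM, by Pearson's r of log2 CPM. The livers share 6 genotype groups and 2 studies, so r holds the differences between groups as well as those within them. Lcat was most like, among others, Proz (r = 0.952) and F2 (0.948), which encode plasma proteins of the clotting system. Mttp was most like Gfm1 (0.945), Lactb2 (0.94) and Hsd17b12 (0.937). Pltp was most like Slc2a4 (0.881), Slc25a1 (0.87), the mitochondrial citrate carrier, and Tecr (0.857), an enzyme of fatty acid elongation. Lpl was most like Tubb5, Lsr and Mthfd2 (0.882, 0.882 and 0.872), Lipc like Wdtc1, Nat8f1 and Nox4 (0.895, 0.887 and 0.881), and Lipg like Snrk, Spata2l and Atl2 (0.905, 0.879 and 0.878). Angptl4 was most like St3gal5 (0.903), Pck1 (0.897), the gluconeogenic enzyme, and Nr1i2 (0.892). The values were lower for Angptl8, with Mybbp1a (0.764), Tuba4a (0.734) and Tuba1c (0.734), and for Tm6sf2, with Skic8 (0.692), Btd (0.68) and Cyp17a1 (0.671).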

How the data were processed

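Liver RNA was made into stranded mRNA libraries, and the authors aligned the reads with STAR 2.5.0a to GRCm39 and deposited raw read counts per gene, unnormalised, with and without regard to strand. Column 4, which holds reads on the gene's own strand, was used, and column 2 was an alternative. Reads that named no gene (24.0 to 35.0% per liver) were left out. Their share was 26.2 to 34.3% in the DN:WT and 24.6 to 26.7% in the DN:HOM livers used. In the knockout study it was 24.3 to 33.0% in KO:WT and 24.3 to 29.1% in KO:HOM livers. Its part in the comparisons was not tested. Groups were taken from the labels. The members, lists and tests were chosen with earlier results of these data known. Genes were tested with edgeR 4.0.16 (R 4.3.3): filterByExpr, TMM, a mean for each of 6 groups, quasi-likelihood F test, Benjamini-Hochberg over all genes and a threshold of 0.05. DN:WT animal 10 and DN:HOM animal 12 were left out because they matched none of the tabulated source values of 1 RNA-seq panel. All members were named. Other pathway genes were named where called in DN:HOM or KO:HOM, with Gpihbp1 added after its values were seen, and cell type markers, for which the same rule was set, were mostly given as counts. The 3 genes of highest r per member were named. Log2 CPM used a prior count of 2. The fit was tested on simulated data. The 9 alternatives were DESeq2 1.42.0, upper-quartile scaling, library size alone, unstranded counts, no low-count filter, mean CPM at least 1, the compared groups alone, all 48 livers, and leaving out the livers under 10000000 reads. Positions are from the GENCODE annotation of GRCm39 and promoters from RefSeq (GRCm38.p6). No protein sequences were used here. A gene of the lipase regulation list, which stays in its counts, and a gene alike to Lcat are not reported here.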

Additional observations from a re-analysis of the deposited data

Results flagged for a closer look

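In 12 cases, from 8 livers, a liver stood far from the rest of its group for a member, by a gap that passes Dixon's 95% limit. In all 54 combinations of gene and group were tested, and chance gives about 1 in 20. DN:HOM animal 33 was the highest of its group for Mttp (259 CPM), Lcat (208.0 CPM) and Angptl4 (87.6 CPM). DN:WT animal 17 was the highest for Pltp (100.2 CPM) and Angptl8 (281 CPM), and KO:WT animal 5 was the highest for Lpl (77.2 CPM) and Angptl8 (108 CPM). KO:HET animal 9 had the highest Lpl of its group (185 CPM) and KO:HET animal 15 the highest Angptl8 (94.4 CPM). DN:HOM animal 19 had 91.6 CPM of Angptl8, DN:HET animal 8 had 37.1 CPM of Lipg, and KO:WT animal 23 was the lowest of its group for Lipc (101.0 CPM).

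The homozygous effects of the studies differed by the interaction test for Mttp (DN minus KO -0.73), Lcat (-0.51) and Lpl (1.59) over 46 livers. That is 3 of 9 members where 34.7% of all genes were called, so the number is not above the background. The Lcat call was lost in 2 of the 9 alternatives. Over all 48 livers the calls of Mttp, Lcat and Lpl were lost, at -0.48 (adjusted p = 0.098), -0.38 (adjusted p = 0.07) and 0.96 (adjusted p = 0.28).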

How the results depend on the processing

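Of 486 values of the members over 9 alternatives and 6 comparisons, 451 kept their direction and side of the threshold. At an unchanged sign 13 lost and 3 gained a call. The other 19 changed sign, and among them Tm6sf2 in DN:HOM with library size alone also lost its call. With library size alone 5 members were called in DN:HOM and 1 in KO:HOM, where 70.1% and 19.5% of all genes were, and over all 48 livers 1 in KO:HOM and 0 for the difference between the studies. Sign changes with library size alone were Tm6sf2 (0.065) and Angptl4 (0.128) in DN:HOM, Lcat in KO:HOM (0.074) and DN:HET (0.032), and Tm6sf2 (0.193) and Lipc (0.034) for the difference. Over all 48 livers DN:HET values became 0.033 for Lcat, -0.43 for Lpl, 0.024 for Angptl4 and 0.036 for Angptl8. The Pltp difference became -0.271 with unstranded counts and -0.018 without the livers under 10000000 reads. Lipc in KO:HET, near 0, became 0.006 with DESeq2 and with all 48 livers, 0.009 with the compared groups alone, 0.014 with library size alone and with upper-quartile scaling, 0.01 with a mean CPM of at least 1 and 0.005 with no filter. None of these sign changes was of a value called under the alternative. With upper-quartile scaling Tm6sf2 in DN:HOM lost its call (adjusted p = 0.06; 0.005 to 0.67 over the 9 alternatives). In DN:HOM the highest adjusted p of the alternatives was 3.8e-05 for Mttp, 0.00063 for Pltp, 0.012 for Lpl, 0.0014 for Lipg, 0.016 for Angptl8, 0.18 for Lcat and 0.34 for Lipc. In KO:HOM the range was 0.0095 to 0.12 for Mttp, 1.5e-15 to 3.9e-05 for Pltp and 0.028 to 0.072 for Lipg, and for the difference it was 7.2e-06 to 0.098 for Mttp, 0.00027 to 0.15 for Lcat and 0.0022 to 0.28 for Lpl. For wild-type livers it was 2.6e-06 to 0.00045 for Angptl4, 2.1e-05 to 0.0057 for Lcat, 0.022 to 0.061 for Angptl8, 0.043 to 0.28 for Lpl and 0.038 to 0.096 for Lipg. The cause of these changes was not tested. The spread between livers was wide for Lipg and Angptl8, and no limit of detection was estimated for them. No paired analysis was possible because the animal numbers name different mice in each group and the labels name no litter. The paper reports that the animals of both studies were split into cohorts. The labels do not name these either, so neither litter nor cohort was fitted.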
